A study of Mus musculus with 17 samples.

Results

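Transcript levels of 36 genes of glycolysis and of the hypoxia response were followed across 17 mouse mammary RNA-seq libraries. The 36 form a pathway list matched to the deposited gene symbols, and the matching rule uses no measured value. The tables hold 35147 different symbols in all. They fall into 6 roles: 3 transporters, 12 enzymes that trap glucose and carry it to triose phosphate, 6 enzymes from triose phosphate to pyruvate, 2 genes that decide the fate of pyruvate, 3 genes for a HIF subunit and its hydroxylases, and 10 other hypoxia-response genes. Of the 36, 34 were listed among the 18818 genes of the culture table, 36 among the 19782 of the knockout macrophage table, 35 among the 17130 of the CXCR4 sort table and 35 among the 26584 of the basal cell table. 32 were in all 4 tables. Ankrd37 and Ero1l were missing by name from the culture table, P4ha2 from the CXCR4 sort table and Pkm from the basal cell table; Ero1l stood in the culture table under its other symbol Ero1a, and Pkm in the basal cell table as Pkm2.

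Glycolysis splits glucose into pyruvate in the cytosol, and lactate dehydrogenase can then turn pyruvate into lactate, which leaves the cell through monocarboxylate transporters. Hypoxia-inducible factor (HIF) is a transcription factor whose alpha subunit is marked for destruction by prolyl hydroxylases when oxygen is present. When it is stable it binds short DNA motifs at glycolytic genes and at genes for mitophagy, collagen hydroxylation and vessel growth. AKT kinase is known for promoting glucose uptake and glycolysis in many cells, and macrophages are known to raise glycolysis when activated.

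All cells came from mammary glands of virgin mice. Wild type macrophages sorted by F4/80 and CD11b were cultured in RPMI with 2% FBS and were given recombinant CXCL12 with the AKT inhibitor GSK690693, the inhibitor alone, CXCL12 alone or neither, 1 library each. Freshly sorted macrophages came from LysmCre+, Cxcr4fl/fl mice and LysmCre+ controls, and from K8Cre+, Cxcl12fl/fl mice and K8Cre+ controls, 2 libraries a group, so the controls carry the Cre as well. Wild type macrophages were also split into CXCR4-positive (2 libraries) and CXCR4-negative cells (1 library). P4 cells, sorted as Lin-CD24+CD29high and described as basal cells enriched for mammary stem cells, came from K8Cre+, Cxcl12fl/fl and K8Cre+ mice, 1 library each. LysM-Cre is driven by the lysozyme 2 locus of myeloid cells and K8-Cre by the keratin 8 promoter of luminal epithelium, so in the K8-Cre mice the macrophages and the P4 cells themselves are not the cells targeted. Ages are not given, and no label says that repeats of a group are different animals, so p-values measure the spread between these libraries, which may be technical.

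The macrophage values were in CPM (read counts scaled to the total of the library), recovered from deposited log2 values. Depth, read from the size of 1 read, was 14323030 to 29042259 reads in culture, 8601809 to 37234435 reads in the knockout experiment and 23198173 to 28796997 reads in the CXCR4 sort. It is unknown for the P4 cells, whose values were FPKM (fragments per kilobase of transcript, scaled to library size). Several libraries stood apart. In K8-Cre control 1, the shallowest, 37.0% of the listed genes were at 0, against 8.31% in K8-Cre control 2. LysM-Cre control 1 had 30.4% of genes at 0 and the culture with both agents 30.9%. The targeted gene Cxcr4 was at 232 and 140.4 CPM in the Cxcr4 knockout libraries, against 819 and 318 CPM in their controls. Cxcr4 RNA did not separate the sorted fractions, with 632 and 875 CPM in CXCR4-positive cells, against 772 CPM in CXCR4-negative cells. Lyz2, a macrophage marker, lies at the Cre driver locus. It was at 67.4 and 51.7 CPM in the Cxcr4 knockout libraries, against 10226 and 2780 CPM in their controls. The genotypes given, LysmCre+ in both groups, do not state the number of Cre copies. In that comparison loss of Cxcr4 and the difference at the driver locus cannot be told apart. Cxcl12 in the P4 cells checks nothing about a deletion in luminal cells. As for the labelled types, macrophage markers Adgre1 (149 to 1429 CPM) and Itgam (167 to 335 CPM) were present in all 15 macrophage libraries, and Krt5 and Krt14 (436 to 561 FPKM) in the P4 cells. The cultured libraries also held endothelial markers: the 8 genes of that list summed to 1587 to 2197 CPM, against 2.21 to 212 CPM in the sorted macrophages.

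Upstream sequences of 5 of the members on which the results below turn are shown first, because their letters can be read against the motif HIF is known to bind. Those of Mxi1, Slc2a3 and Pfkfb3, on which results below turn as well, are not shown. Each is the 250 bases before a RefSeq transcription start in build GRCm38.p6, on the strand of the gene, with ACGTG and GCGTG and their reverse complements CACGT and CACGC in capitals. Slc16a3 lies on the plus strand at chr11:120948817-120949066. On the minus strand lie Ddit4 at chr10:59951771-59952020, Egln3 at chr12:54203875-54204124, Gapdh at chr6:125165774-125166023 and Hk3 at chr13:55021386-55021635.
Slc16a3: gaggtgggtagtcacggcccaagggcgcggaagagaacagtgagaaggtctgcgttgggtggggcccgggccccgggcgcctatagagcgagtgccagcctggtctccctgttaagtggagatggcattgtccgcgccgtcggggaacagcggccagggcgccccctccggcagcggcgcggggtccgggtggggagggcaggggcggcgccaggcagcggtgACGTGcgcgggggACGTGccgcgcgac
Ddit4: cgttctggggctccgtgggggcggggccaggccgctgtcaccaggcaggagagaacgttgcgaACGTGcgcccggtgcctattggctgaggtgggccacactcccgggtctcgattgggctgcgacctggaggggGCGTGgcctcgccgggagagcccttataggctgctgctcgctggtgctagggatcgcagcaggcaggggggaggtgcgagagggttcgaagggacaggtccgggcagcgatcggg
Egln3: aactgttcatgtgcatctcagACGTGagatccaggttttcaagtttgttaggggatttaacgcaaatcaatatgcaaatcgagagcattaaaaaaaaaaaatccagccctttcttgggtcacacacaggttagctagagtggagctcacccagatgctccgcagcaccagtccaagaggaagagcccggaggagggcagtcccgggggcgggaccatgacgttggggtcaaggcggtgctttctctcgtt
Gapdh: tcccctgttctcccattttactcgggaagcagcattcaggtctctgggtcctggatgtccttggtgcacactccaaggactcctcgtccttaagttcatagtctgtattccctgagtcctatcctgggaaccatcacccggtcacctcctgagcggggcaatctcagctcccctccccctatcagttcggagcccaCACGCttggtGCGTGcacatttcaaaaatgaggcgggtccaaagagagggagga
Hk3: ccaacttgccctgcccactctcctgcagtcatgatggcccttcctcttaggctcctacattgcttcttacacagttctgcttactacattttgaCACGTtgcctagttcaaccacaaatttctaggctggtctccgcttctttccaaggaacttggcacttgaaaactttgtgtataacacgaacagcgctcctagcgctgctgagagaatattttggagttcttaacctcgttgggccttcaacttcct
Slc16a3 held 2 matches, both ACGTG, near the start. Ddit4 held 1 match to each motif, Egln3 and Hk3 1 to ACGTG, and Gapdh 2 to GCGTG. RefSeq gave windows for 33 of the members, 48 in all, of which 39 (81.3%) held either motif on either strand, against 38.6% of all 32851 windows of that length. ACGTG alone was in 25 of the 48 windows (52.1%), against 16.6% of all windows, and GCGTG alone was also in 52.1%, against 28.2%. The palindrome CACGTG, which contains ACGTG, was in 5 of 48 (10.4%), against 6.02% of all windows. The members were listed as glycolysis and hypoxia-response genes, and the 32851 windows were not matched to theirs in base composition. The shares are therefore a description of the list and no test of it. A match describes the letters and is not a binding site.

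The culture experiment addresses what CXCL12 and AKT contribute to the macrophage transcriptome. The inhibitor can be read in 2 pairs of cultures that share no library: inhibitor alone over untreated, and inhibitor with CXCL12 over CXCL12 alone. 4 members were at least 2-fold higher with the inhibitor in both pairs: Ddit4, Mxi1, Gapdh and Egln3. None was 2-fold lower in both. Each treatment is 1 library, so there is no test, and a member counted as changed when it moved at least 2-fold with at least 10 CPM in the higher library.

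Ddit4 encodes an inhibitor of mTORC1 that is induced by hypoxia and stress. It was at 112 CPM with both agents, 175 CPM with the inhibitor, 46.7 CPM with CXCL12 and 73.1 CPM untreated. Both inhibitor cultures exceeded both cultures without it, and the log2 ratio was 1.26 in the absence and 1.26 in the presence of CXCL12. Mxi1, which encodes an antagonist of MYC, was at 62.5 CPM with both agents, 52.9 CPM with the inhibitor, 23.1 CPM with CXCL12 and 20.9 CPM untreated. Its log2 ratios were 1.33 without and 1.43 with CXCL12. The glycolytic enzyme gene Gapdh was at 64.4 CPM with both agents, 90.1 CPM with the inhibitor, 26.2 CPM with CXCL12 and 37.2 CPM untreated, log2 ratios of 1.27 and 1.29. These 3 genes had closely matching ratios in the 2 pairs.

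Egln3 encodes the HIF prolyl hydroxylase PHD3, itself a hypoxia-induced gene. It was at 19.6 CPM with both agents, 24.0 CPM with the inhibitor, 0.0689 CPM with CXCL12 and 5.20 CPM untreated. The CXCL12 value is only 2 reads, so the fold over it, 285, has an exact 95% counting interval of 78.3 to 2366. Without CXCL12 the log2 ratio was 2.19. Per kilobase, Egln3 made up 77.9% of the summed level of Egln1 and Egln3 with both agents and 46.8% with the inhibitor, against 0.202% with CXCL12 and 15.5% untreated. Egln1, the main HIF hydroxylase (PHD2), was low in 1 library only, at 7.55 CPM with both agents, against 36.9 CPM with the inhibitor, 45.8 CPM with CXCL12 and 38.3 CPM untreated.

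The share of members past 2-fold has to be read against the table. Of the 31 members at 10 CPM or more, 11 moved 2-fold with the inhibitor alone, when 36.3% of all genes did. 9 of them were higher (19.9% of all genes) and 2 lower (16.4%). With CXCL12 present, 17 of 34 moved, when 47.7% of all genes did. 10 of them were higher (23.6% of all genes) and 7 lower (24.2%). Both shares are near those of the table. Past 2-fold upward in both pairs were 4 of 31 members, against 4.75% of 8542 genes, and downward 0 of 31, against 5.75%. The median log2 ratio of the members was -0.02 without and 0.29 with CXCL12 (0.06 and 0.07 over all genes), and -0.03 and 0.29 with genes at 0 set to their bound. Under median-ratio scaling the all-gene median of the second pair moved to 0.18.

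**Figure D1:**
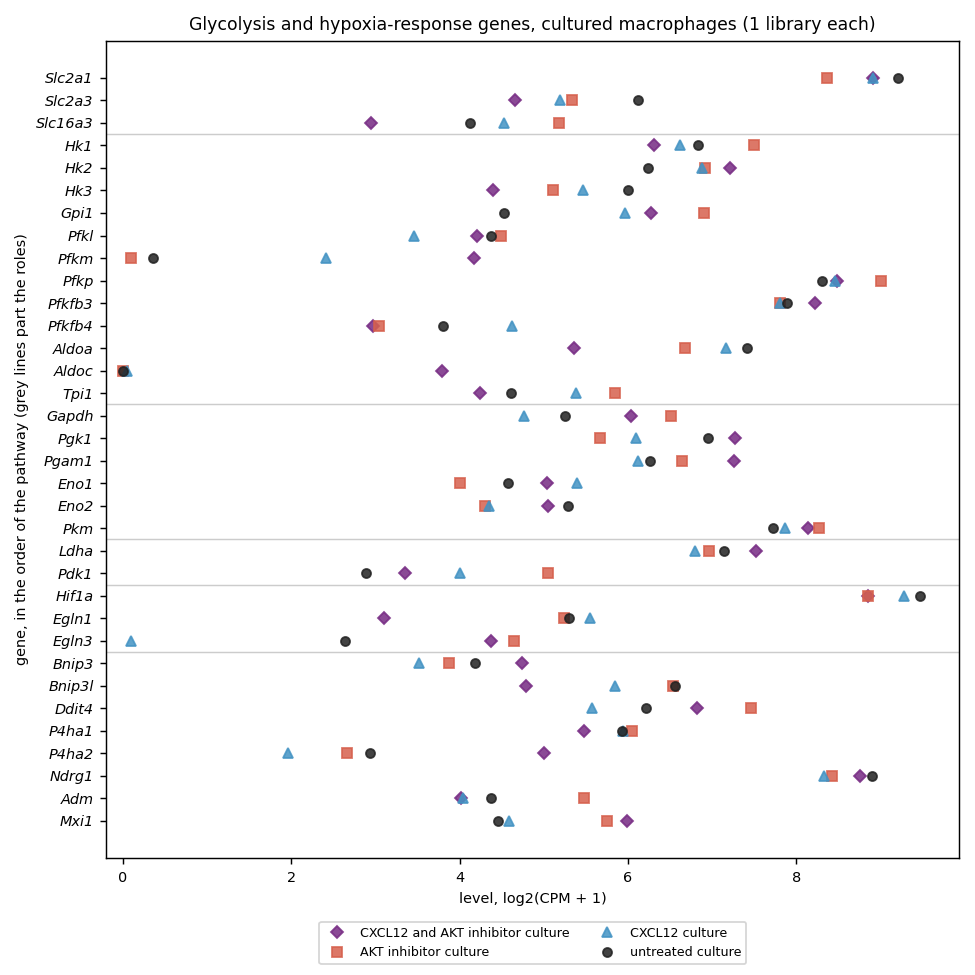
Levels of the 34 listed members in the 4 culture libraries, as log2(CPM + 1), 1 point per library, ordered by pathway with grey lines between roles. Ddit4, Mxi1 and Gapdh have both inhibitor cultures to the right of both others, and Hif1a has both to the left.

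Among transporters, Slc2a1 (GLUT1, the basal glucose transporter) was at 479 CPM with both agents, 329 CPM with the inhibitor, 480 CPM with CXCL12 and 591 CPM untreated. No pair of Slc2a1 values differed 2-fold. Slc2a3, the high-affinity transporter GLUT3, was at 24.1 CPM with both agents, 39.5 CPM with the inhibitor, 35.4 CPM with CXCL12 and 68.2 CPM untreated. Its ratio of both agents over untreated was past 2-fold (-1.50 on the log2 scale). Slc16a3, the lactate exporter MCT4, went opposite ways past 2-fold in the 2 inhibitor pairs, as did Tpi1 and Pgk1 and as did 7.41% of all genes. It had 6.74 CPM with both agents, 35.1 CPM with the inhibitor, 22.1 CPM with CXCL12 and 16.4 CPM untreated.

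Within the steps to triose phosphate, Gpi1 (glucose phosphate isomerase) was lowest untreated, with 76.4 CPM with both agents, 119 CPM with the inhibitor, 61.7 CPM with CXCL12 and 22.1 CPM untreated. Its log2 ratio was 2.41 for the inhibitor over untreated and 1.47 for CXCL12 over untreated. Tpi1 (triose phosphate isomerase) split as Slc16a3 did, at 17.9 CPM with both agents, 56.3 CPM with the inhibitor, 40.6 CPM with CXCL12 and 23.4 CPM untreated. Aldoa, the main aldolase, was lowest with both agents, at 39.9 CPM, against 101 CPM with the inhibitor, 142 CPM with CXCL12 and 169.6 CPM untreated. Its paralog Aldoc had 206 reads (12.8 CPM) with both agents and 0, 1 and 0 reads with the inhibitor, with CXCL12 and untreated. That is at least 90.5-fold higher than untreated, taking 3 reads in the untreated library as the floor. Pfkm, the muscle phosphofructokinase, was likewise highest with both agents, at 17.0 CPM, against 1 read (0.0698 CPM) with the inhibitor, 4.34 CPM with CXCL12 and 0.284 CPM untreated. The fold over the inhibitor alone was 244, with an exact 95% counting interval of 43.4 to 9666. Such intervals and floors cover counting error only.

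Of the other enzymes of these steps, Pfkfb4 was lower with both agents than with CXCL12 by more than 2-fold. With the inhibitor alone it was lower than untreated by less than 2-fold. Pfkfb4 was at 6.86 CPM with both agents, 7.26 CPM with the inhibitor, 23.6 CPM with CXCL12 and 12.96 CPM untreated. Hk3, a hexokinase of blood cells, was lower with both agents than with CXCL12 by more than 2-fold, and with the inhibitor alone than untreated by less, at 20.02 CPM with both, 33.5 CPM with the inhibitor, 43.2 CPM with CXCL12 and 62.9 CPM untreated. Hk2, the inducible hexokinase, ran the other way, with 147 CPM with both agents, 119.9 CPM with the inhibitor, 117 CPM with CXCL12 and 74.2 CPM untreated. Neither Hk2 nor Hk1 passed 2-fold over untreated. Pfkfb3, whose product makes the activator of phosphofructokinase, stayed between 223 and 299 CPM, and Pfkp, the platelet phosphofructokinase, between 316 and 512 CPM.

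From triose phosphate to pyruvate, Pgk1 (phosphoglycerate kinase) was lower with the inhibitor alone and higher with both agents, each against its own partner. It was at 153 CPM with both, 49.8 CPM with the inhibitor, 67.4 CPM with CXCL12 and 122.7 CPM untreated. Pgam1 (phosphoglycerate mutase) was at 152 CPM with both agents, 98.9 CPM with the inhibitor, 68.5 CPM with CXCL12 and 75.5 CPM untreated. Eno2 was at 32.2 CPM with both agents, 18.7 CPM with the inhibitor, 19.3 CPM with CXCL12 and 38.0 CPM untreated. Pkm (pyruvate kinase) ranged from 210.5 to 308 CPM and Ldha (lactate dehydrogenase A) from 109.9 to 182 CPM, with no 2-fold change. Pgk1, Pgam1 and Eno1 are uncertain because near copies held reads. In the cultures Pgk1-rs7 had 31.4 to 58.3 CPM, Pgam1-ps2 5.13 to 24.1 CPM and Eno1b 40.2 to 82.2 CPM. Eno1 had 15.1 to 40.9 CPM there. Levels of near copies of other members, Gapdh among them, are not given here.

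Pdk1, whose product is a kinase that inhibits pyruvate dehydrogenase, was highest with the inhibitor alone. It was at 9.17 CPM with both agents, 32.05 CPM with the inhibitor, 15.01 CPM with CXCL12 and 6.38 CPM untreated. Hif1a itself was lower in both inhibitor cultures, at 461 CPM with both agents and 459 CPM with the inhibitor, against 620 CPM with CXCL12 and 705 CPM untreated, log2 ratios of -0.43 with and -0.62 without CXCL12, under 2-fold.

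Of the other hypoxia-response genes, Adm (adrenomedullin, a vasodilator peptide) stood out in the inhibitor culture, at 15.2 CPM with both agents, 43.4 CPM with the inhibitor, 15.4 CPM with CXCL12 and 19.8 CPM untreated. P4ha2, a collagen prolyl hydroxylase subunit, was high in the culture with both agents, at 31.1 CPM, against 5.31 CPM with the inhibitor, 2.89 CPM with CXCL12 and 6.67 CPM untreated. The mitophagy receptor gene Bnip3l was low there, at 26.5 CPM, against 91.5 CPM with the inhibitor, 56.7 CPM with CXCL12 and 93.5 CPM untreated. Its paralog Bnip3 was highest there, at 25.6 CPM, against 13.7 CPM with the inhibitor, 10.4 CPM with CXCL12 and 17.1 CPM untreated. Ndrg1 (321 to 477 CPM) and P4ha1 (43.4 to 65.4 CPM) did not pass 2-fold in any pair. Members that stood apart in the culture with both agents did so in the library with the most genes at 0 of the 4; what part that has in their values was not tested.

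**Figure D2:**
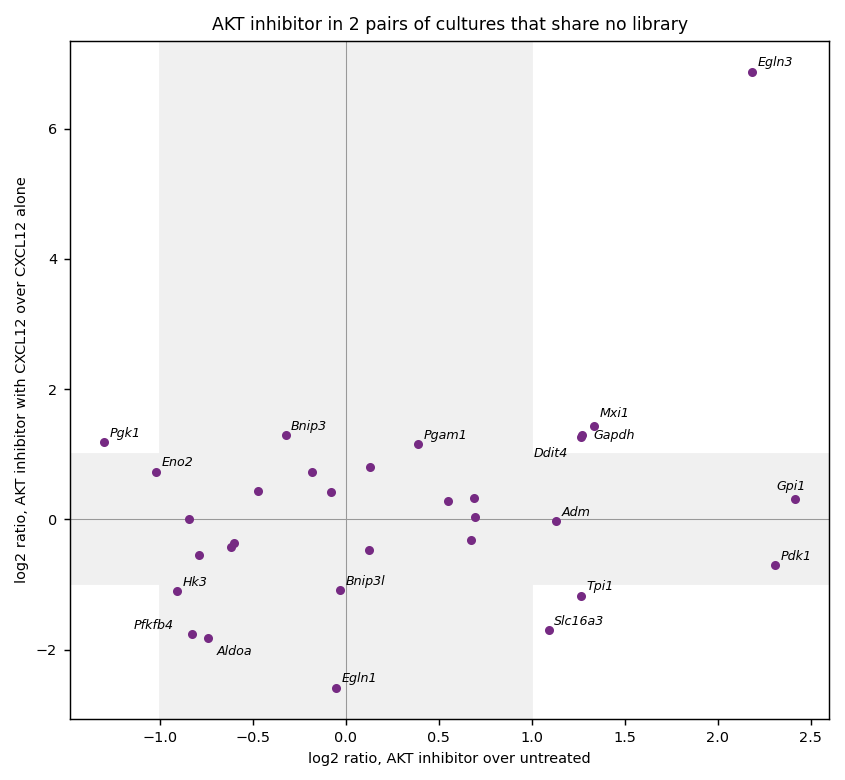
Log2 ratio of each member for the inhibitor over untreated (x axis) against the inhibitor with CXCL12 over CXCL12 alone (y axis), for the 31 members at 10 CPM or more in both pairs, with grey bands under 2-fold. Ddit4, Gapdh and Mxi1 sit together at upper right, while Slc16a3, Tpi1 and Pgk1 lie in opposite corners; the height of Egln3 rests on 2 reads.

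CXCL12 alone moved few of the members that reached 10 CPM. Of the 30 at 10 CPM or more, 2 passed 2-fold over untreated, against 26.3% of all genes: Gpi1 and Pdk1, both higher (12.0% of all genes). In the presence of the inhibitor 13 of 33 passed for CXCL12, against 48.9% of all genes, 5 of them higher (21.4%) and 8 lower (27.5%). Of the 29 members at 10 CPM or more in both CXCL12 pairs, none moved 2-fold in the same direction in both. Of 8415 genes, 2.45% did upward and 4.1% downward. Pdk1 went opposite ways, as 6.71% of genes did. The median log2 ratio was -0.20 without and -0.21 with the inhibitor. Eno2, Pfkl, Slc2a3 and Pgk1 were next in size for CXCL12 over untreated, with log2 ratios of -0.97, -0.97, -0.94 and -0.86. For both agents over untreated 13 of 33 passed, against 48.2% of all genes, 7 of them higher (22.9%) and 6 lower (25.3%).

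Genes of neighbouring pathways can be read against the same shares of all genes, 19.9% higher and 16.4% lower with the inhibitor alone and 23.6% higher and 24.2% lower with CXCL12 present. Of 24 genes of pyruvate entry and the TCA cycle at 10 CPM or more, 0 were 2-fold higher and 8 lower with the inhibitor alone, a median log2 ratio of -0.28. With CXCL12 present, 8 of 25 were higher and 6 lower, a median of 0.05. Of other HIF pathway genes, 2 of 21 were higher and 2 lower with the inhibitor alone, and 3 of 22 higher and 4 lower with CXCL12 present. Other glycolysis genes gave 3 higher and 4 lower of 10 without CXCL12, and 2 higher and 0 lower of 7 with it. None of the 8 pentose phosphate pathway genes passed with the inhibitor alone. The summed endothelial markers were 2045 CPM with both agents and 2197 CPM with the inhibitor, against 1587 CPM with CXCL12 and 1861 CPM untreated. Macrophage markers summed to 8997 CPM with both agents and 5662 CPM with the inhibitor, against 6455 CPM with CXCL12 and 6698 CPM untreated. The part of either in these levels was not tested. In bulk libraries fewer cells of a type and less RNA per cell cannot be told apart.

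Shares of a gene within its family do not depend on the scaling between the macrophage tables. Of 20 genes in 9 families, 2 had shares whose ranges in cultured and freshly sorted macrophages did not overlap, Hk1 and Pfkp, and the other 18 overlapped. Per kilobase, Hk1, the housekeeping hexokinase, made up 23.4% to 42.0% of the 3 hexokinases in culture, against 3.29% to 13.1% in the 11 sorted macrophage libraries. Pfkp made up 77.6% to 92.2% of the phosphofructokinases in culture, against 55.1% to 77.3% in sorted cells. Slc2a1 made up 94.5% to 97.6% of Slc2a1 and Slc2a3 in culture, while the sorted libraries spread from 20.3% to 95.2%. The P4 shares rest on the gene lengths behind the deposited FPKM and the macrophage shares on annotated exon lengths, so they are not compared. In the P4 cells Hk3 was at 0 and 0.0113 FPKM, and Hk1 and Hk2 split the family at 33.9% and 66.1% in the knockout and 42.3% and 57.7% in the control.

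**Figure D3:**
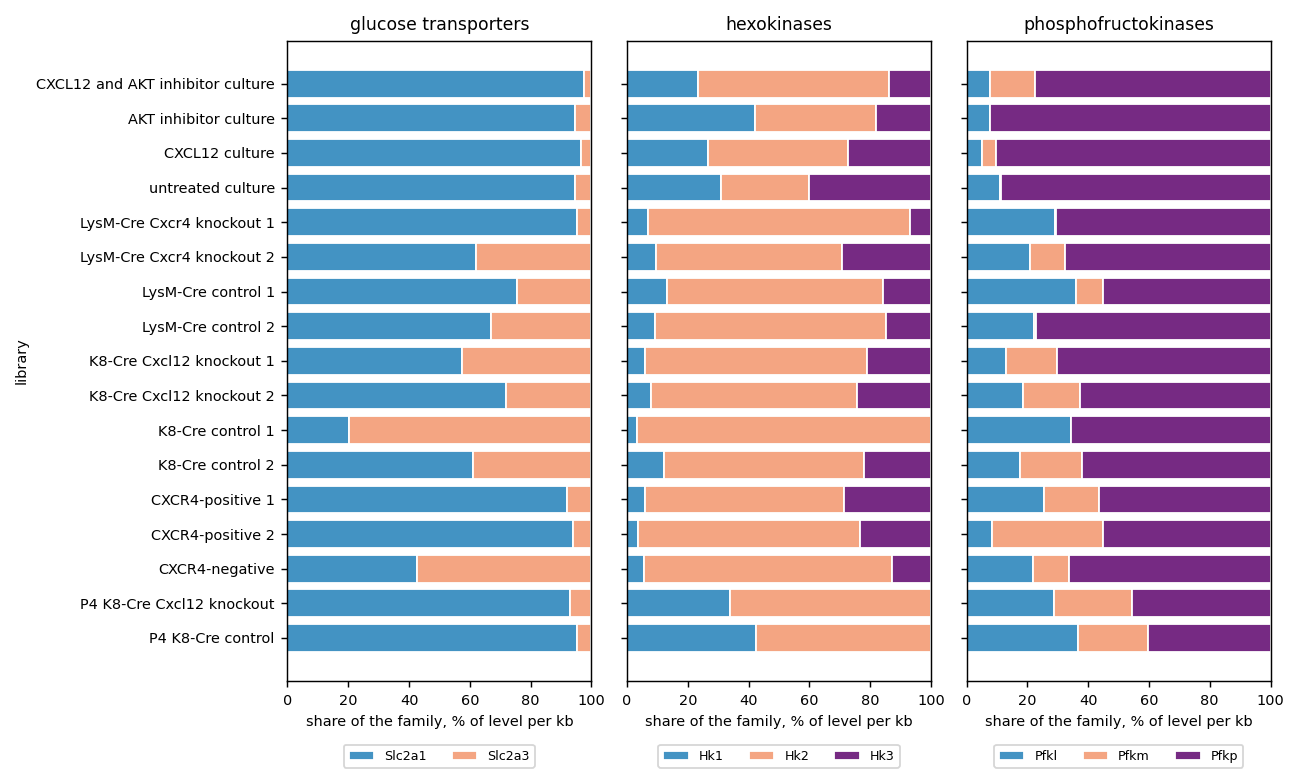
Share of each family's summed level per kilobase (P4 cells as deposited FPKM) (x axis, %) held by each glucose transporter, hexokinase and phosphofructokinase gene in the 17 libraries. Hk1 is wider in culture than in sorted macrophages, Slc2a3 is narrow in CXCR4-positive and wide in CXCR4-negative cells, and Hk3 is at or near 0 in the P4 cells.

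In level, 6 of the 33 members listed in all 3 macrophage tables were higher in all 4 cultures than in all 11 sorted libraries, against 7.74% of 12928 genes, and 1 was lower, against 4.32%. The tables were normalized separately, so these are levels set side by side without a test. The 6 were Slc2a1, Hk1, Pfkp, Hif1a, Ddit4 and Ndrg1. Slc2a1 ran from 329 through a median of 479 to 591 CPM in culture, against 15.5, 74.3 and 193 CPM in sorted cells. Hif1a ran from 459 through 540.1 to 705 CPM in culture, against 113, 200.1 and 253 CPM in sorted cells. Ddit4 ran from 46.7 through 92.4 to 175 CPM in culture, against 0.116, 8.59 and 31.5 CPM in sorted cells. Ndrg1, a hypoxia- and stress-induced gene, ran from 321 through 388 to 477 CPM in culture, against 52.2, 118 and 229 CPM in sorted cells. The 1 lower gene was Gpi1, with 22.1, 69.03 and 119 CPM in culture, against 119.7, 130.04 and 183 CPM in sorted cells. Marker sums also separated the cultures from the sorted cells for 7 of 13 cell type lists. Endothelial markers were higher in culture, as given above, as were adipocyte markers (387 to 514 CPM, against 49.8 to 164 CPM) and erythrocyte markers (180 to 311 CPM, against 0 to 78.9 CPM). Monocyte markers were lower in culture (314 to 490 CPM, against 1448 to 2631 CPM), as were B cell, T and NK cell, and neutrophil markers. The part of these cells in the levels was not tested.

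Splitting fresh macrophages by CXCR4 asks how cells that carry the CXCL12 receptor differ from those that do not. Of 34 members tested, 5 passed in limma at a Benjamini-Hochberg adjusted p under 0.05, against 8.46% of all 14411 genes tested. In CXCR4-positive cells 2 of the 5 were higher, against 5.06% of all genes, and 3 lower, against 3.4%. The negative arm is 1 library, so its own spread was not measured. limma took each gene's variance wholly from the trend over all genes, and each SE and p below rests on that trend. All 5 calls were lost without the trend (lowest adjusted p = 0.228) and without the filter on low values (lowest adjusted p = 0.258). At an unadjusted p under 0.05 there were 8 members, against 19% of all genes. The 3 lower members were the glucose transporter Slc2a3, the lactate transporter Slc16a3 and Ddit4, and the 2 higher were Hk3 and Pfkfb3. Aldoc did not pass the filter of 1 CPM in 2 libraries. The median member difference was -0.22 (13 of 35 above 0), close to the -0.20 of all genes.

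Slc2a3 was at 14.8 and 13.4 CPM in the 2 CXCR4-positive libraries, against 295 CPM in the CXCR4-negative library. The positive libraries lay close together and far below the negative one, a log2 difference of -4.30 ± 0.48 (SE from the trend; limma adjusted p = 1.01e-16, and 0.228 without the trend). Slc16a3 was at 7.54 and 5.04 CPM in CXCR4-positive cells, against 60.7 CPM in CXCR4-negative cells, a log2 difference of -3.10 ± 0.73 (limma adjusted p = 0.000614). Slc2a1, by contrast, was at 81.5 and 102 CPM in CXCR4-positive cells, against 106 CPM in CXCR4-negative cells, a difference of -0.22 with a 95% interval of -0.97 to 0.53. So Slc2a1 made up 91.9% and 94.03% of the 2 glucose transporters per kilobase in CXCR4-positive cells, against 42.7% in CXCR4-negative cells.

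Ddit4 was at 4.31 and 4.12 CPM in CXCR4-positive cells, against 30.6 CPM in CXCR4-negative cells, a log2 difference of -2.60 ± 0.89 (limma adjusted p = 0.0425). Hk3 was at 62.8 and 51.7 CPM in CXCR4-positive cells, against 15.4 CPM in CXCR4-negative cells, 1.82 ± 0.49 higher on the log2 scale (limma adjusted p = 0.00442). Pfkfb3 was at 466 and 424 CPM in CXCR4-positive cells, against 229 CPM in CXCR4-negative cells, 0.95 ± 0.33 higher (limma adjusted p = 0.0476). Ddit4 and Pfkfb3 lie just inside the threshold.

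By role, 2 of 3 transporters passed, both lower (3.4% of all genes). Of the 11 enzymes to triose phosphate 2 passed, both higher (5.06% of all genes), and the median difference of the 11 was 0.59. Each of these counts rests on 2 genes. None of the 6 enzymes from triose phosphate to pyruvate passed, with differences from -1.38 to -0.19. None of the 2 pyruvate genes or the 3 HIF genes passed. Of the 9 other hypoxia-response genes tested 1 passed. Of members at 10 CPM or more, the largest differences that did not pass were those of Eno1, at 19.4 and 22.0 CPM in CXCR4-positive cells, against 55.2 CPM in CXCR4-negative cells (-1.38; limma adjusted p = 0.0969), and Gapdh, at 29.4 and 40.1 CPM, against 67.5 CPM (-0.95; limma adjusted p = 0.237). Ero1l, an oxidase of protein folding in the endoplasmic reticulum, was at 81.8 and 81.9 CPM in CXCR4-positive cells, against 146 CPM in CXCR4-negative cells (-0.83; limma adjusted p = 0.188). Egln1 differed by -0.77 and Pfkl by -0.73. Both positive libraries lay on one side of the negative one for 26 of 34 members, against 76.7% of all genes, 9 of them above (32.1%) and 17 below (44.6%).

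**Figure D4:**
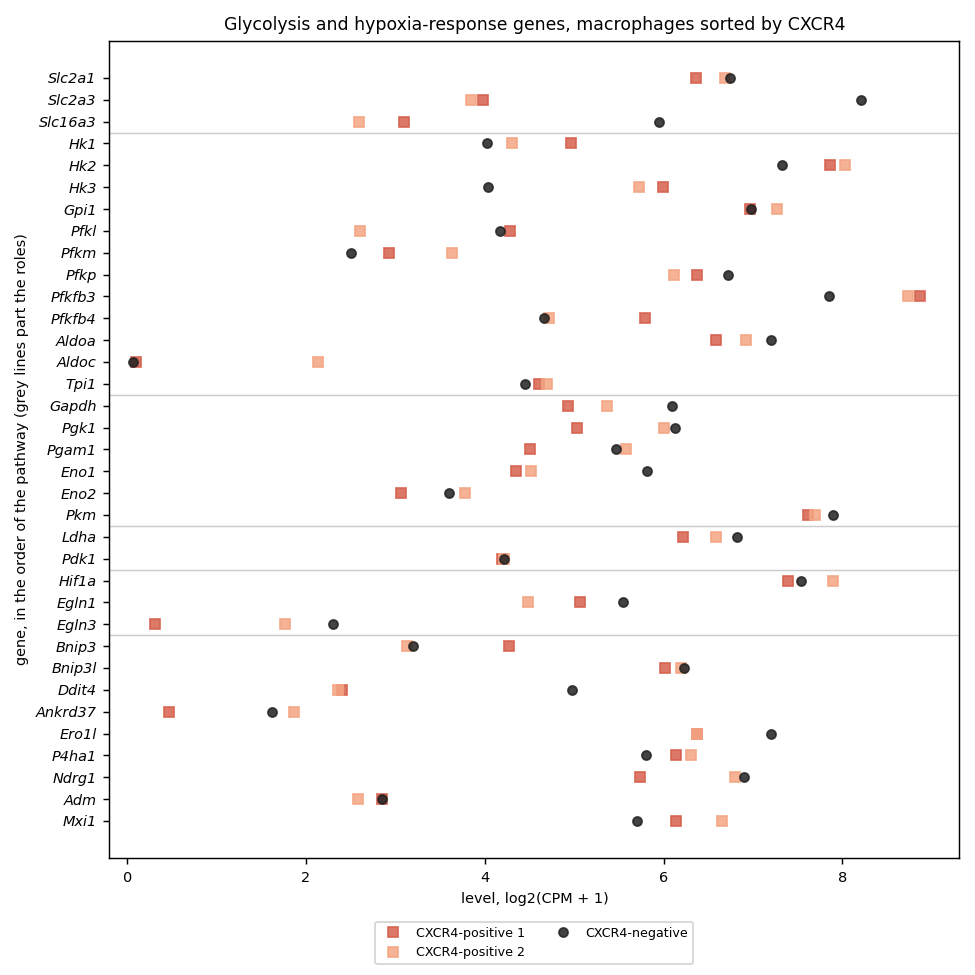
Levels of the 35 listed members in macrophages sorted by CXCR4, as log2(CPM + 1), with 2 CXCR4-positive libraries (squares) and 1 CXCR4-negative library (circle). Slc2a3, Slc16a3 and Ddit4 have both squares far left of the circle, and Hk3 and Pfkfb3 have both to the right.

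On neighbouring pathways, counts can be read against the 5.06% of all genes that passed as higher and the 3.4% as lower. Of 14 other glycolysis genes tested 3 rose and 1 fell, and of 23 other HIF pathway genes 1 rose and 3 fell. Vegfa, the vessel growth factor and a HIF target, was at 120.5 and 201 CPM in CXCR4-positive cells, against 648 CPM in CXCR4-negative cells (-2.05 ± 0.34; limma adjusted p = 8.68e-08). Slc16a7, a monocarboxylate transporter, was at 122 and 80.6 CPM, against 23.02 CPM (2.06 ± 0.42; limma adjusted p = 4.86e-05). Slc37a2, a sugar phosphate transporter, was at 82.1 and 80.9 CPM, against 18.8 CPM (2.06 ± 0.45; limma adjusted p = 0.000148). Slc2a9, a urate and hexose transporter, did not pass, at 18.3 and 14.2 CPM, against 2.20 CPM. 2 of 29 pyruvate and TCA cycle genes rose and 0 fell, and 0 of 8 pentose phosphate genes passed.

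Markers of other cells moved with this split, in which 5.06% of all genes passed as higher and 3.4% as lower. The summed eosinophil markers (6 of 8 listed) were at 30.2 and 24.5 CPM in CXCR4-positive cells, against 264 CPM in CXCR4-negative cells, with Epx at 0 in both positive libraries and none at 0 in the negative one. Dendritic cell markers (8 of 8 listed) summed to 199 and 174 CPM, against 933 CPM, and 5 of 8 fell while 1 rose. Of the macrophage markers (10 of 10 listed) 5 rose, and their sum was 9681 and 11489 CPM in CXCR4-positive cells, against 7282 CPM in CXCR4-negative cells. Fibroblast markers summed to 199 and 456 CPM, against 112 CPM, and dissociation stress genes to 16636 and 13280 CPM, against 18305 CPM, in the same order. 4 of 8 monocyte markers fell and 1 rose, while their sum was 2194 and 2220.2 CPM, against 1539 CPM. The part of these cells in the member differences was not tested. With the trend and a filter kept, Slc2a3, Slc16a3 and Hk3 also passed under the other pseudocounts, the filter of 5 CPM and both other scalings.

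Deleting Cxcr4 in myeloid cells asks whether macrophages need the receptor for these programmes. None of the 35 members tested passed in limma between LysM-Cre Cxcr4 knockout and control macrophages (1 at an unadjusted p under 0.05, Ero1l), against 0.00579% of 17275 genes at the adjusted and 3.33% at the unadjusted threshold. The 2 control libraries differed widely, and the half-width of the 95% interval had a median of 1.69 on the log2 scale. The median member difference was 0.04, and 0.14 over all genes. The macrophage markers, Lyz2 among them, summed to 3053 and 2023 CPM in knockout cells, against 12790 and 4446 CPM in control cells. Averaged over each group, Lyz2, whose levels are given above, fell by more than the sum did. The other markers together were therefore not lower on average. Of the 10 markers tested, 1 passed as lower and 0 as higher, and their median log2 difference was 0.24. The part of these markers in the member values was not tested. Ero1l was at 152 and 84.1 CPM in knockout cells, against 23.2 and 78.3 CPM in control cells (1.38 ± 0.68, SE; limma adjusted p = 1). Both knockout libraries were above both controls, and the difference was 0.53 without LysM-Cre control 1.

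The other large differences, among members at 10 CPM or more, also moved when a library was left out. Pgam1 was at 94.1 and 30.5 CPM in knockout cells, against 4.10 and 27.7 CPM in control cells (2.18, and 0.93 without control 1). Pdk1 was at 0.238 and 22.6 CPM in knockout cells, against 47.0 and 11.3 CPM in control cells (-2.17, -1.19 without control 1 and -0.046 without knockout 1). Bnip3 was at 14.7 and 11.6 CPM in knockout cells, against 0 and 14.6 CPM in control cells (1.84), and Adm at 5.76 and 21.8 CPM in knockout cells, against 74.1 and 10.7 CPM in control cells (-1.26). Bnip3 and Adm changed sign without LysM-Cre control 1, to -0.14 and 0.081. The groups did not overlap for 5 of 35 members, against 25.5% of all genes: 4 were higher in the knockout (16.7%) and 1 lower (8.78%).

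Deleting Cxcl12 in luminal epithelium asks whether macrophages respond to the loss of the ligand from neighbouring cells. No member of 35 passed in limma between K8-Cre Cxcl12 knockout and control macrophages (1 at an unadjusted p under 0.05, Mxi1), against 0% of 17275 genes at the adjusted and 2.84% at the unadjusted threshold. The median member difference was 0.09, and 0.36 over all genes. Mxi1 was at 103 and 86.2 CPM in knockout cells, against 4.77 and 64.4 CPM in control cells (2.29 ± 0.81; limma adjusted p = 1). Both knockout libraries were above both controls, and the difference was 0.54 without K8-Cre control 1, and 4.04 (limma adjusted p = 0.0253) without K8-Cre control 2. Ddit4 was at 31.5 and 21.6 CPM in knockout cells, against 0.116 CPM (1 read) and 8.59 CPM in control cells (3.05 ± 1.75; limma adjusted p = 1). Ddit4 did not overlap between the groups either, and its difference was 1.497 without K8-Cre control 1.

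Hk3, Pdk1 and Adm differed by 2.15, 2.03 and 1.57, and without K8-Cre control 1, the shallowest library, they were -0.14, -0.41 and -0.085. In it Hk3 and Pdk1 had 1 read each (0.116 CPM) and Adm 0.698 CPM, against 25.6, 31.8 and 15.8 CPM in K8-Cre control 2. The knockout libraries held 25.1 and 21.2 CPM of Hk3, 22.9 and 24.5 CPM of Pdk1, and 23.4 and 9.25 CPM of Adm. The groups did not overlap for 11 of 35 members, against 28.4% of all genes: 6 were higher in the knockout (20.4%) and 5 lower (8.03%). Macrophage markers were present in both groups, at 6466 and 8404 CPM in the knockout and 9803 and 9550 CPM in the control in sum.

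The difference between the 2 knockouts was tested directly. No member passed in limma (0 at an unadjusted p under 0.05), against 0.00579% of genes adjusted and 2.48% unadjusted. The largest differences were those of Pdk1 (-4.20 ± 2.26), Ddit4 (-3.58 ± 2.47), Adm (-2.83 ± 2.11), Bnip3 (2.22 ± 2.42) and Hk3 (-2.18 ± 1.96), each with a 95% interval that includes 0. Leaving out 1 library at a time gave -6.64 to -1.76 for Pdk1, -5.13 to -2.03 for Ddit4, -4.48 to -1.17 for Adm, 0.24 to 4.20 for Bnip3 and -4.46 to 0.11 for Hk3. No gene of the 5 other metabolic lists passed in either knockout.

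**Figure D5:**
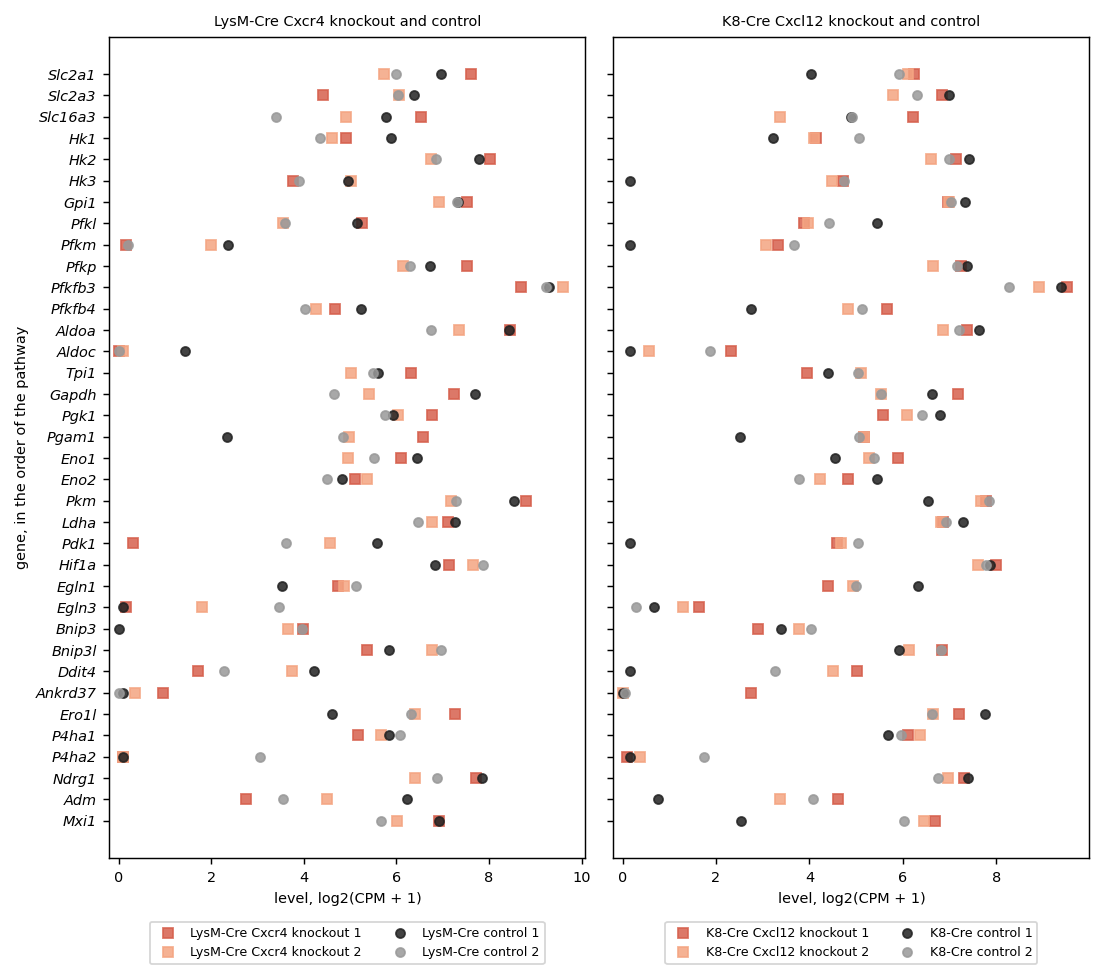
Levels of all 36 members in log2(CPM + 1), 1 point per library, in the LysM-Cre Cxcr4 (left) and K8-Cre Cxcl12 (right) experiments, with knockout libraries as squares and controls as circles. In the right panel K8-Cre control 1 (black) is far left of the other libraries for Hk3, Pdk1, Ddit4, Adm and Mxi1, among others.

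P4 cells of K8-Cre Cxcl12 knockout mice were compared with 1 control library, with no test. Of 26 members at 10 FPKM or more, 3 passed 2-fold, against 13.3% of all genes: Adm was higher (7.99% of all genes), and Egln3 and Ndrg1 lower (5.33%). Adm was at 63.3 FPKM in the knockout, against 25.0 FPKM in the control. Egln3 was at 8.95 FPKM in the knockout, against 21.3 FPKM in the control, and Ndrg1 at 112 FPKM, against 302 FPKM. The log2 ratios were 1.30, -1.17 and -1.42.

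Next in size among members at 10 FPKM or more was Hif1a, at 60.5 FPKM in the knockout, against 96.5 FPKM in the control (-0.66). Pfkp was at 18.3 FPKM, against 12.3 FPKM (0.54), and Pfkm at 10.4 FPKM, against 7.04 FPKM (0.50). Hk1 was at 6.92 FPKM, against 10.1 FPKM (-0.49), and Bnip3 at 12.9 FPKM, against 18.1 FPKM (-0.46). Under that minimum, Eno2 and Aldoc moved more than 2-fold. Eno2 was at 4.88 FPKM in the knockout, against 0.499 FPKM in the control, and Aldoc at 9.73 FPKM, against 3.80 FPKM. The median member ratio was -0.02, and -0.04 over all genes. Per length, Gapdh was the highest member in the knockout, at 179.9 FPKM, and second to Ndrg1 in the control, at 240.4 FPKM. Slc16a3 was low, at 1.44 FPKM in the knockout and 1.82 FPKM in the control. The summed basal markers were 8704 FPKM in the knockout and 6810 FPKM in the control, fibroblast markers 504 and 306 FPKM, and dissociation stress genes 5906 and 3938 FPKM in the same order; their part in these ratios was not tested.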

How the data were processed

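RNA-seq was made from 17 mouse libraries in 12 groups. Per the labels' protocols, libraries were made from total RNA with a kit that removes ribosomal RNA. Per the submitters' processing notes, STAR 2.7.8a and Partek were used and the build hg38 is named, although the gene symbols are mouse; the counting step is not given in the sources used here. The authors deposited log2 values for the macrophages, log2(CPM + 0.0001), in 3 tables, and FPKM values for the P4 cells, per the file headers. CPM was recovered from the deposited values, and 1 read was taken as the smallest repeated step; between 73.9% and 89.8% of low values were whole reads within 0.05 of a read, so no count model was run.

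limma 3.58.1 in R 4.3.3 was fitted to log2(CPM + 1) over all genes with at least 1 CPM in 2 libraries, with a mean-variance trend and Benjamini-Hochberg adjustment. It was first tested on simulated data. All 8 knockout-experiment libraries shared 1 fit. Cultures and P4 cells have 1 library a group and are reported as log2 ratios after adding 2 reads at mean depth (0.0993 CPM) or 1 FPKM, called at 2-fold and 10 CPM or FPKM. Upstream sequences are from RefSeq on GRCm38.p6. Entries without a name (429 in the P4 table) were left out, and of repeated symbols the entry with the highest mean was kept. Counts of members passing a filter say nothing of those that did not.

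The members and gene lists were chosen with earlier results of these data known. Named are the members that pass a test, that are past 2-fold in both pairs of a culture treatment or in the P4 pair, and otherwise the up to 5 largest differences at 10 CPM or FPKM, with up to 4 genes of neighbouring pathways where a result turns on them; other members are named to account for the list. Pseudocounts, filters, scalings, the trend, a replicate block and leaving out libraries were tried as alternatives.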

Additional observations from a re-analysis of the deposited data

Results flagged for a closer look

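3 members went opposite ways, past 2-fold, in the 2 pairs of cultures that show the AKT inhibitor. The change with the inhibitor in the presence of CXCL12, minus that in its absence, was -2.80 for Slc16a3, -2.44 for Tpi1 and 2.49 for Pgk1 on the log2 scale. Among the 8542 genes compared, 7.41% did so. Each value rests on 4 single libraries and the difference was not tested.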

How the results depend on the processing

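Of the values of single members, 435 stayed the same under the alternatives tried. Another 16 no longer passed, 1 newly passed, 18 with no test moved and 7 changed sign. Where a test was run, the same means the same direction and call. Where an alternative gave no p-value, it means the same direction only. For ratios it means a log2 shift within 95% counting error in the cultures, or under 0.2 in the P4 cells. Leaving out 1 library at a time, the Cxcr4 knockout difference was between -0.14 (without LysM-Cre control 1) and 3.82 for Bnip3 and between -2.60 and 0.081 (without the same library) for Adm. The Cxcl12 knockout difference was between -0.14 and 4.43 for Hk3, -0.41 and 4.47 for Pdk1, and -0.085 and 3.22 for Adm, and the Hk3 difference between the knockouts was between -4.46 and 0.11; K8-Cre control 1 was left out in the 4 that changed sign. Pfkl in the sort, with no test, was between -1.57 and 0.11 (without CXCR4-positive 2). Leaving out 1 library gave 0 to 1 passing members for the Cxcl12 knockout (1, Mxi1, at 4.04 and limma adjusted p = 0.0253, without K8-Cre control 2) and 0 for the Cxcr4 knockout and for the difference. The median member difference of the Cxcr4 knockout was 0.43 with control 1 of that line left out and -0.36 with control 2 left out. In the CXCR4 sort, 3 members passed with a pseudocount of 0.1 CPM, with a filter of 5 CPM and under quantile normalization, 4 under median-ratio scaling, and 0 with no filter and with no trend. With no minimum level, and with a minimum of 1 CPM or 1 FPKM, 5 members passed for CXCL12 over untreated and 5 in the P4 cells. The shares of all genes under these alternatives, in the sort, the cultures and the P4 cells, are not given here. Those given above for the main settings do not apply to these counts. Median-ratio scaling moved the all-gene median to 0.18, 0.12 and 0.16 in the 3 ratios that use the culture with both agents; changes there are relative to it. The causes were not tested.

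With repeat number as a replicate block, 0 members passed in either knockout or in their difference, as without it, and the median member differences were 0.04, 0.09 and -0.41. Libraries of the same number correlated by 0.057 to 0.139 in their deviations, so the numbers were not taken to pair the libraries. Depth limits values near 3 reads, 0.0806 to 0.349 CPM in the knockout experiment and 0.103 to 0.209 CPM in culture.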
